A study of Rattus norvegicus with 8 samples.

Results

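The 8 genes examined here are transcripts that mark macrophages or describe their activation state in sciatic nerve tissue. Cd68, Aif1, Adgre1 and Csf1r are identity genes, and Nos2, Arg1, Mrc1 and Cd163 are used to describe polarization. They were taken by gene symbol, 1 Ensembl identifier each, from a table of 32545 genes. All 8 were among the 16478 genes with at least 10 normalized read counts in at least 2 libraries, which were the genes tested.

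RNA was sequenced from 3 PEG-fused peripheral nerve allografts (PEG-fused PNAs), 3 negative control allografts (NC PNAs) and 2 unoperated sciatic nerves (Unop), 1 library per animal. All rats were wild-type, outbred female Sprague Dawley animals of 3 to 6 months, and each allograft was a sciatic segment from another rat that was not tissue matched, in a host without immunosuppression. Both kinds of graft were bathed in a hypotonic calcium-free saline with methylene blue, sutured and rinsed in calcium-containing saline, and the PEG group alone also received polyethylene glycol (PEG), a polymer that fuses cut axon membranes. Grafts were excised at 14 days postoperatively (PO). A graft holds donor and host cells, and the reads do not separate them. Unop values rest on 2 nerves.

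Macrophages clear myelin and axon debris after nerve injury and also take part in the rejection of foreign tissue. Their survival depends on signals through the CSF1 receptor, and the transcription factor PU.1 drives much of their gene expression. Interferon gamma and microbial products move them towards a state with inducible nitric oxide synthase (classical, or M1), whereas IL-4, IL-13 and IL-10 move them towards states with arginase 1, mannose receptor or the haemoglobin scavenger CD163 (alternative, or M2). Both enzymes use the same substrate, arginine.

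Depth lay between 32472925 and 39959620 reads on genes per library. Schwann cell markers of the labelled nerve tissue were present throughout, with summed normalized counts between 22783 and 67918 in grafts and of 1342080 and 1580540 in Unop nerves. Skeletal muscle transcripts set NC 1 and NC 3 apart, with summed counts of 400198 and 156242 beside 6419 to 23470 in the other 6 libraries. Calls and signs of the 8 genes that change without these 2 libraries are given with both values. In bulk tissue, fewer macrophages and less of a transcript per macrophage cannot be told apart.

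Sequences upstream of the genes are shown because PU.1 binds the promoters of many macrophage genes. RefSeq promoter windows (rat build GRCr8) were at hand for Mrc1, Cd163, Cd68, Adgre1 and Csf1r. The stretch before the annotated gene start is printed for Cd68 (chr10:54882442-54882691, minus strand), Mrc1 (chr17:82157475-82157724, plus strand) and Adgre1 (chr9:2329190-2329397, plus strand). These were printed because each holds a whole PU.1 core before that start, whereas Cd163 and Csf1r do not. Capitals mark the PU.1 core GAGGAA or its reverse complement TTCCTC.
Cd68: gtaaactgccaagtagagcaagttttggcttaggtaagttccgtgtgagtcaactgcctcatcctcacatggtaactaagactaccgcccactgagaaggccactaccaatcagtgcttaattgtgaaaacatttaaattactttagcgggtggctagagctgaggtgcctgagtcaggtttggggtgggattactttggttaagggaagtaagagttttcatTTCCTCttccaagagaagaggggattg
Mrc1: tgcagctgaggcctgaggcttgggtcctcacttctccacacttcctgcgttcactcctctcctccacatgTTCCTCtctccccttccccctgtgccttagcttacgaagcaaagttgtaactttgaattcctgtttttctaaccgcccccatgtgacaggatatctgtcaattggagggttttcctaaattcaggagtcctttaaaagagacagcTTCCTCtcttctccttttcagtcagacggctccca
Adgre1: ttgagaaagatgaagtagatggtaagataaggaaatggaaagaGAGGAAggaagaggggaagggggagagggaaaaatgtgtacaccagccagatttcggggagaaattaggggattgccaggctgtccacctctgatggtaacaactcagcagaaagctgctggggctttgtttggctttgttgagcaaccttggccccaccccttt
The search, on both strands, covered the full window of 250 bases, which for Cd163, Adgre1 and Csf1r runs past the annotated gene start after 227, 208 and 23 bases. The PU.1 core occurred 2 times in Mrc1, 1 time in Cd68 and 1 time in Adgre1, and had no match in Cd163. Csf1r had 2 matches, neither of them wholly within the 23 bases before its annotated start. Of all 33469 windows, 23.3% held it. The AP-1 site TGANTCA occurred 2 times in Cd68 and in no other of these windows, against 6.34% of all windows. The interferon gamma activated site TTCNNNGAA, found in 7.67% of windows, and the TATA box TATAAA, found in 12.9%, were absent from the 5 windows. Such matches describe the letters only and do not show binding, and a part of PU.1 in the counts of these genes was not tested. Spi1, which encodes PU.1 and was chosen after its values were seen, had normalized counts of 1704 to 2019 in PEG-fused PNAs, 2408 to 2920 in NC PNAs and 230.1 to 351 in Unop nerves.

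Compared with NC PNAs, PEG-fused PNAs had significantly fewer Nos2, Aif1, Adgre1, Csf1r and Cd163 transcripts, whereas Cd68, Arg1 and Mrc1 did not pass the threshold. This comparison asks how the PEG treatment of a graft goes with its macrophage transcripts during the period of rejection. Of the 8 genes, 5 were lower and 0 were higher (limma, Benjamini-Hochberg adjusted p under 0.05, two-sided). Among all genes tested, 28.9% passed in either direction, 15.0% higher and 13.9% lower. The median log2 fold change of the 8 was -0.68, and that of all genes tested was 0.00. Groups did not overlap for 6 of the 8, all but Arg1 and Mrc1, and for 48.9% of all genes tested.

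**Figure D1:**
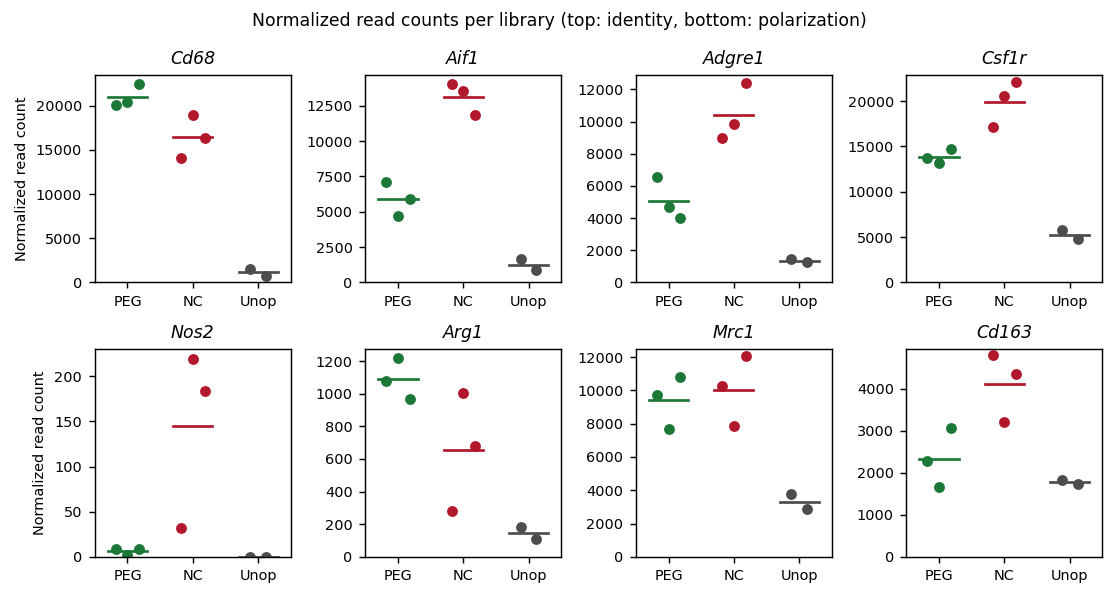
Normalized read counts of the 8 genes (vertical axes, linear, from 0) in each library, by group (horizontal axes: PEG, NC and Unop). Points are libraries and lines are group means. PEG-fused PNAs lie below NC PNAs for Aif1, Adgre1, Csf1r, Cd163 and Nos2 and above them for Cd68, and both Unop nerves have 0 counts of Nos2.

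Among the identity genes, Aif1 encodes IBA1, an actin-binding protein of macrophages. Its normalized counts were 7122, 4731 and 5885 in PEG 1 to PEG 3, 14058, 13535 and 11825 in NC 1 to NC 3, and 1643 and 894 in Unop 1 and Unop 2. Every PEG-fused PNA lay below every NC PNA and above both Unop nerves. The log2 fold change against NC PNAs was -1.17 (SE 0.23, limma adjusted p = 0.00731). Without the muscle-rich NC 1 and NC 3 the difference of Aif1 was as large, at -1.21, and its limma adjusted p with 1 NC PNA was 0.057. Adgre1, which encodes the surface receptor F4/80, was counted at 6542, 4706 and 4017 in PEG-fused PNAs, 8994, 9877 and 12365 in NC PNAs, and 1428 and 1254 in Unop nerves. The 3 groups again did not overlap. Its log2 fold change was -1.05 (SE 0.19, limma adjusted p = 0.00516), and it passed under every alternative tried.

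Csf1r, the receptor for CSF1 and IL-34, differed less. Counts were 13699, 13128 and 14727 in PEG-fused PNAs, 17188, 20546 and 22061.5 in NC PNAs, and 5752 and 4765 in Unop nerves. PEG-fused PNAs lay close together and below all NC PNAs. The log2 fold change was -0.52 (SE 0.12, limma adjusted p = 0.0154), and without PEG 2 it was -0.48 and did not pass (limma adjusted p = 0.0617). Cd68, a lysosomal glycoprotein of phagocytes, went the other way in rank, at 20030, 20455 and 22451 in PEG-fused PNAs, 14060.1, 18968 and 16383 in NC PNAs, and 1529 and 787 in Unop nerves. All 3 PEG-fused PNAs exceeded all 3 NC PNAs. The difference was smaller than the test could call, with a log2 fold change of 0.36 (95% interval -0.16 to 0.87, limma adjusted p = 0.264).

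Of the polarization genes, Nos2 encodes inducible nitric oxide synthase. It had 9, 2 and 9 reads in PEG-fused PNAs, 36, 204 and 190 in NC PNAs, and 0 in both Unop nerves. As normalized counts these were 8.34, 1.87 and 8.44 in PEG-fused PNAs and 32.2, 219 and 183 in NC PNAs. NC PNAs were spread widely, and the lowest of them still lay above every PEG-fused PNA. The log2 fold change was -4.13 (SE 0.78, limma adjusted p = 0.00638), and it passed under every alternative tried, with values between -5.12 and -3.12. Cd163 counts were 2273, 1664 and 3064 in PEG-fused PNAs, 4789, 3194 and 4357 in NC PNAs, and 1828 and 1737 in Unop nerves. PEG 2 lay below both Unop nerves, and PEG 3 lay just under NC 2. Its log2 fold change was -0.84 (SE 0.22, limma adjusted p = 0.0254). Without PEG 1, PEG 2, NC 1 or NC 3 in turn, it was -0.84, -0.62, -0.72 and -0.79 and did not pass (limma adjusted p = 0.0645, 0.0733, 0.0657 and 0.0732). Without NC 1 and NC 3 together, it was -0.50 (limma adjusted p = 0.286).

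Arg1, which hydrolyses arginine to ornithine and urea, was at 1077, 1219 and 969 in PEG-fused PNAs, 281, 1006 and 682 in NC PNAs, and 181 and 107.6 in Unop nerves. PEG-fused PNAs varied little, and NC 2 overlapped with them. The log2 fold change was 0.91 (95% interval -0.06 to 1.87, limma adjusted p = 0.142). It was 0.11 (limma adjusted p = 0.828) without NC 1 and NC 3, and 1.30 (limma adjusted p = 0.0393) without NC 2. NC 1, the graft with the fewest Arg1 counts, had the most skeletal muscle transcripts, and their part in the Arg1 value was not tested. Mrc1, the mannose receptor CD206, had 9755, 7700 and 10783 counts in PEG-fused PNAs, 10263, 7851 and 12044 in NC PNAs, and 3773 and 2857 in Unop nerves. Grafts of both kinds covered nearly the same range. Its log2 fold change was -0.09 (95% interval -0.53 to 0.35, limma adjusted p = 0.766), and its sign turned without PEG 2 (0.051), without NC 3 (0.054) and without NC 1 and NC 3 (0.25).

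**Figure D2:**
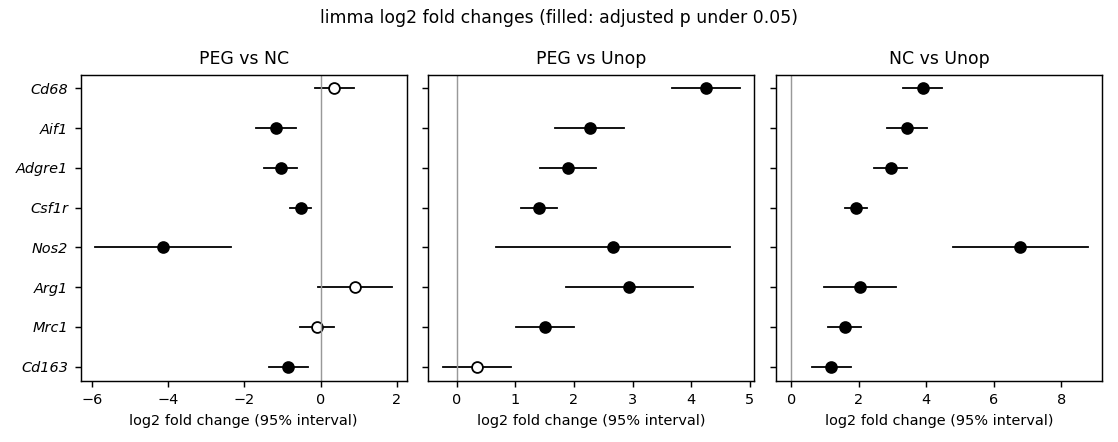
Log2 fold changes of the 8 genes from limma (horizontal axes) with 95% intervals, with 1 panel for each pair of groups. Filled points have an adjusted p under 0.05, and the axes of the panels differ. Filled points are left of 0 for 5 genes in PEG vs NC and right of 0 for 7 and 8 genes in the comparisons with Unop nerves.

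Relative to unoperated nerves, 7 of the 8 genes were significantly higher in PEG-fused PNAs and all 8 were significantly higher in NC PNAs by limma. Of all genes tested, 57.7% passed in PEG vs Unop (29.1% higher and 28.6% lower) and 64.5% passed in NC vs Unop (32.2% higher and 32.3% lower). Non-overlapping groups were found for 7 of the 8 in PEG vs Unop (74.5% of all genes) and for 8 of 8 in NC vs Unop (74.6% of all genes). Both comparisons share the 2 Unop nerves, so their values are only set side by side.

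Cd68 had log2 fold changes of 4.25 in PEG-fused PNAs and 3.90 in NC PNAs against Unop nerves (limma adjusted p = 4.86e-06 and 4.38e-06). Aif1 was at 2.27 and 3.43 (limma adjusted p = 0.000127 and 9.1e-06), and Adgre1 at 1.90 and 2.95 (limma adjusted p = 0.000116 and 7.29e-06). Csf1r rose by less than the other identity genes in both kinds of graft, by 1.40 and 1.92 on the log2 scale (limma adjusted p = 5.69e-05 and 7.17e-06). In PEG-fused PNAs the value of Cd68 was thus the largest of the 4 identity genes, and each of the 4 passed in both kinds of graft under every alternative tried.

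For the polarization genes, Arg1 had log2 fold changes of 2.95 in PEG-fused PNAs and 2.04 in NC PNAs against Unop nerves (limma adjusted p = 0.000874 and 0.00506), and the latter was 1.67 and did not pass without Unop 2 (limma adjusted p = 0.0536). Mrc1 had nearly equal values, 1.51 and 1.59 (limma adjusted p = 0.000466 and 0.000255). Cd163 was the gene that did not pass in PEG-fused PNAs, at 0.34 (95% interval -0.23 to 0.92, limma adjusted p = 0.27), whereas NC PNAs had 1.19 (limma adjusted p = 0.00328). With 0 reads of Nos2 in both Unop nerves, bounds were set from 3 reads per library, or 3.75 normalized counts. Against it, the mean Nos2 count of NC PNAs was at least 38.6-fold higher and that of PEG-fused PNAs, among which PEG 2 lay under the floor, at least 1.66-fold. The call of Nos2 in PEG vs Unop (limma adjusted p = 0.0284) was lost when PEG 1, PEG 3, Unop 1 or Unop 2 was left out, at log2 fold changes of 2.37 to 2.66 and adjusted p between 0.0798 and 0.106. It was also lost in edgeR on the recovered reads, with a fitted value of 5.68 (adjusted p = 0.0986), and in limma when 8 replaced 1 as pseudocount, with 0.79 (adjusted p = 0.342). A fitted value against a group at 0 depends on such settings.

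To ask whether the genes moved by different amounts, each was also expressed relative to Csf1r in the same library, since that receptor marks the lineage. These ratios compare libraries and say nothing about the levels of different genes, whose lengths differ. The shift of Csf1r itself puts the median log2 fold change of all genes at 0.52 in PEG vs NC, -1.39 in PEG vs Unop and -1.90 in NC vs Unop. In PEG vs NC, 2 of the 7 other genes (Cd68 and Arg1) were significantly higher relative to Csf1r and 3 (Nos2, Aif1 and Adgre1) were lower in limma. Of all genes tested, 46.4% were higher and 6.61% were lower on this scale, 53.0% in all. A gene that did not change at all would therefore stand near 0.52 here.

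Cd68 stood at 146, 156 and 152 counts per 100 Csf1r counts in PEG-fused PNAs, 81.8, 92.3 and 74.3 in NC PNAs, and 26.6 and 16.5 in Unop nerves. The 3 groups were well apart, in the order PEG, NC, Unop. Its log2 difference relative to Csf1r was 0.88 in PEG vs NC (SE 0.18, limma adjusted p = 0.00297). Arg1 stood at 7.86, 9.29 and 6.58 per 100 Csf1r counts in PEG-fused PNAs, 1.64, 4.90 and 3.09 in NC PNAs, and 3.15 and 2.26 in Unop nerves. PEG-fused PNAs were above all other libraries, and NC PNAs overlapped with Unop nerves. The log2 difference was 1.42 in PEG vs NC (SE 0.33, limma adjusted p = 0.00509), and 0.68 (limma adjusted p = 0.0708) without NC 1 and NC 3.

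Aif1 and Adgre1 were lower relative to Csf1r by limma, with log2 differences of -0.65 (SE 0.21, adjusted p = 0.0256) and -0.53 (SE 0.19, adjusted p = 0.0359). The call of Aif1 was lost without PEG 2, PEG 3 or NC 1 (limma adjusted p up to 0.102), and that of Adgre1 without PEG 2, PEG 3 or NC 3 (up to 0.162; -0.33 without PEG 3). Without NC 1 and NC 3 together, they were -0.64 and -0.42 and did not pass (limma adjusted p = 0.0734 and 0.219). Per 100 Cd68 counts, Aif1 stood at 35.6, 23.1 and 26.2 in PEG-fused PNAs, 100.0, 71.4 and 72.2 in NC PNAs, and 107 and 114 in Unop nerves. This ratio was lowest in PEG-fused PNAs. It restates the counts of the 2 genes given above, was not planned and was not tested. Nos2 relative to Csf1r had a log2 difference of -3.61 (SE 0.67, limma adjusted p = 0.00165). Per 100 Arg1 counts, Nos2 stood at 0.775, 0.153 and 0.871 in PEG-fused PNAs and at 11.4, 21.8 and 26.9 in NC PNAs, a ratio that was not tested either.

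The M2-associated receptors Mrc1 and Cd163 are set side by side next. Mrc1 and Cd163 did not pass relative to Csf1r in PEG vs NC, at log2 differences of 0.43 (95% interval 0.03 to 0.83, limma adjusted p = 0.0659) and -0.32 (95% interval -0.82 to 0.18, limma adjusted p = 0.242). Mrc1 passed without NC 1 (0.56, limma adjusted p = 0.0192) and without NC 1 and NC 3 (0.82, limma adjusted p = 0.00852), where Cd163 was at 0.073. Per 100 Mrc1 counts, Cd163 stood at 23.3, 21.6 and 28.4 in PEG-fused PNAs, 46.7, 40.7 and 36.2 in NC PNAs, and 48.4 and 60.8 in Unop nerves. In this ratio PEG-fused PNAs were below NC PNAs, which were below Unop nerves. It restates the counts of the 2 genes given above, was not planned and was not tested. Against Unop nerves, Cd163 was lower relative to Csf1r in PEG-fused PNAs (log2 difference -1.06, limma adjusted p = 0.00228) and in NC PNAs (-0.73, limma adjusted p = 0.0172), among the 75.1% and 81.0% of all genes that were lower on this scale. The call in NC PNAs was lost without NC 2 or Unop 2 (-0.54 and -0.64, limma adjusted p = 0.0542 and 0.115). Mrc1 did not pass in either, at 0.10 (95% interval -0.35 to 0.55) and -0.33 (95% interval -0.78 to 0.12), the latter passing without NC 1 (-0.46, limma adjusted p = 0.0445).

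In the same comparisons with Unop nerves, 4 of the 7 genes were higher relative to Csf1r in each kind of graft, where 7.30% (PEG) and 7.63% (NC) of all genes were higher and 82.4% and 88.6% passed in either direction. Cd68, Aif1 and Adgre1 were higher in both, at log2 differences of 2.85, 0.86 and 0.49 in PEG-fused PNAs and 1.98, 1.51 and 1.02 in NC PNAs (limma adjusted p up to 0.0488). Adgre1 in PEG-fused PNAs, at 0.49, was the one at the threshold, and 5 libraries left out in turn each ended its call (0.29 to 0.54). Aif1 in PEG-fused PNAs did not pass without Unop 2 (0.56, limma adjusted p = 0.0974). Arg1 was higher in PEG-fused PNAs (1.54, limma adjusted p = 0.00209) and did not pass in NC PNAs (0.12, 95% interval -0.69 to 0.93). Nos2 was higher in NC PNAs (4.87, limma adjusted p = 5.86e-05) and did not pass in PEG-fused PNAs (1.26, 95% interval -0.39 to 2.91), except without PEG 2 (1.79, limma adjusted p = 0.0442) or with a pseudocount of 0.5 (2.11, limma adjusted p = 0.0302).

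**Figure D3:**
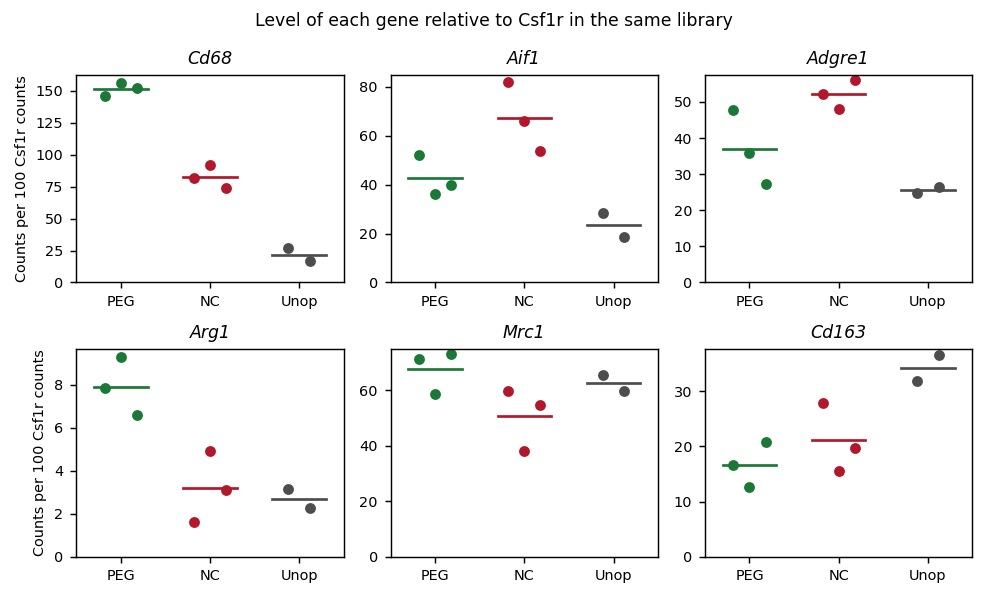
Counts of 6 genes per 100 Csf1r counts of the same library (vertical axes, linear, from 0) in PEG, NC and Unop libraries. Points are libraries and lines are group means. Cd68 is highest in PEG-fused PNAs (146 to 156), Aif1 and Adgre1 are highest in NC PNAs, and Cd163 is highest in Unop nerves (31.8 to 36.5).

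Neither ligand of Csf1r passed the test between the kinds of graft. Csf1 had counts of 2162, 2204 and 2577 in PEG-fused PNAs, 2339, 2332 and 2520 in NC PNAs, and 2009 and 1642 in Unop nerves, a log2 fold change of -0.05 in PEG vs NC (95% interval -0.30 to 0.19, limma adjusted p = 0.736). Il34 had counts of 898 to 972 in PEG-fused PNAs, 775 to 1012 in NC PNAs and 2359 to 2425 in Unop nerves. Its log2 fold change was 0.07 in PEG vs NC (95% interval -0.17 to 0.32, limma adjusted p = 0.643), -1.37 in PEG vs Unop (adjusted p = 3.34e-05) and -1.44 in NC vs Unop (adjusted p = 1.69e-05). Thus Il34 was lower in both kinds of graft than in unoperated nerve, whereas its receptor transcript was higher.

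Other growth factor receptors of myeloid cells were lower in PEG-fused than NC PNAs. Of 9 tested genes of this axis, 6 were lower and 0 were higher, with a median log2 fold change of -0.51. Of all genes tested, 13.9% were lower and 15.0% were higher. Csf2rb, the shared signalling chain of the GM-CSF, IL-3 and IL-5 receptors, had 1649 to 2490 counts in PEG-fused PNAs and 4180 to 5866 in NC PNAs (log2 fold change -1.31, limma adjusted p = 0.00197). Csf3r, the G-CSF receptor, fell by 1.10 on the log2 scale (limma adjusted p = 0.0185). Csf2, which encodes GM-CSF itself, was rare, at 0.935 to 5.56 counts in PEG-fused PNAs and 16.1 to 33.1 in NC PNAs (log2 fold change -2.43, limma adjusted p = 0.0222). Pik3cg (-0.46) and Csf2ra (-0.51) also passed, at limma adjusted p of 0.00653 and 0.0436. Without NC 1 and NC 3, or without PEG 2 or NC 3 alone, 2 of the 9 passed, Csf2rb and Pik3cg in the first case.

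Around Nos2 and Arg1 in arginine use, Ass1, Asl, Gch1 and Arg2 were lower in PEG-fused than NC PNAs, and Ddah1 and Ddah2 were higher. Ass1, argininosuccinate synthase, which rebuilds arginine from citrulline for nitric oxide synthesis, had counts of 368, 329 and 371 in PEG-fused PNAs, 1851, 3042 and 3190.1 in NC PNAs, and 222 and 201 in Unop nerves. Every NC PNA had over 4 times the count of any PEG-fused PNA. The log2 fold change was -2.88 in PEG vs NC (SE 0.20, limma adjusted p = 0.000343). Asl, the next enzyme in that route, was at -0.36 (limma adjusted p = 0.0123), and Gch1, which makes the cofactor tetrahydrobiopterin, was at -0.87 (limma adjusted p = 0.00622).

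Arg2, the mitochondrial arginase, was also lower in PEG-fused PNAs (56.3 to 59.3 counts against 128 to 164, log2 fold change -1.36, limma adjusted p = 0.00214). Its direction was thus opposite to the uncalled one of Arg1. Ddah1 and Ddah2, which degrade the inhibitor of nitric oxide synthases, asymmetric dimethylarginine, were higher than in NC PNAs, at 0.75 and 0.54 (limma adjusted p = 0.00581 and 0.0133). Both were far below Unop nerves, at -3.33 and -1.48 in PEG-fused PNAs and -4.07 and -2.01 in NC PNAs (limma adjusted p up to 4.2e-05). Of the 12 genes of the list, 4 were lower, 2 were higher and 6 did not pass, among them Nos1, Nos3, Odc1, Oat and the arginine transporters Slc7a1 and Slc7a2. The median of the list was -0.28, and 28.9% of all genes tested passed in PEG vs NC. Against Unop nerves, 2 of the 12 were higher and 7 lower in PEG-fused PNAs, where 57.7% of all genes passed. In NC PNAs 3 were higher and 6 lower, where 64.5% of all genes passed. Arg2 was at -1.78 in PEG vs Unop (limma adjusted p = 0.000191) and at -0.43 in NC vs Unop (limma adjusted p = 0.115).

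Some listed genes of resident macrophages and of haem handling were higher in PEG-fused than NC PNAs, whereas the haemoglobin scavenger Cd163 was lower (-0.84). Of 12 tested, 5 were significantly higher in PEG-fused than NC PNAs by limma, 0 were lower and 7 did not pass. The median log2 fold change of the 12 was 0.33. Of all genes tested, 15.0% were higher and 13.9% were lower. Slc40a1, the iron exporter ferroportin, had 509, 505 and 507 counts in PEG-fused PNAs, 224, 195 and 324 in NC PNAs, and 402 and 396 in Unop nerves (log2 fold change 1.06, limma adjusted p = 0.00422). Its counts, on the identifier that passed the filter, were nearly equal among PEG-fused PNAs and above those of Unop nerves, where NC PNAs lay below them. Lyve1, a hyaluronan receptor of some resident macrophages and of lymphatic vessels, was at 1802 to 2529, 1036 to 1223 and 1503 to 2682 in the 3 groups in the same order (log2 fold change 1.04 in PEG vs NC, limma adjusted p = 0.01).

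Stab1, Hpx and Gas6 made up the 5, at log2 fold changes of 0.65, 0.69 and 0.52 (limma adjusted p = 0.0461, 0.0448 and 0.0435). Gas6 and Hpx are not particular to macrophages, since Schwann cells, endothelium and other cells make them too. With each library left out in turn, between 2 and 5 of the 12 passed. Without NC 1 and NC 3 there were 3, of which Slc40a1 and Stab1 were higher and Hmox1 was lower. Vsig4 (0.94), Folr2 (0.14), Blvrb (0.11), F13a1 (-0.72) and Cd209f (-1.04) did not pass between grafts (limma adjusted p from 0.199 to 0.725). Other members of the CD163 route of haem uptake did not pass either. Hmox1, haem oxygenase 1, was at 0.01 (95% interval -0.78 to 0.81, limma adjusted p = 0.981) and Hp, haptoglobin, at 0.14 (limma adjusted p = 0.57). Both were higher in grafts than in Unop nerves, Hmox1 by 2.62 (PEG) and 2.60 (NC) on the log2 scale (limma adjusted p = 0.000566 and 0.000449). Against Unop nerves, 29.1% of all genes tested were higher and 28.6% lower in PEG-fused PNAs, and 32.2% and 32.3% in NC PNAs. Of the 12, 5 were higher and 2 lower in PEG-fused PNAs, and 5 were higher and 4 lower in NC PNAs. Cd209f and Gas6 were lower in both, with Cd209f at 258 to 533 counts in Unop nerves and 0 to 9.68 in the 6 grafts.

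**Figure D4:**
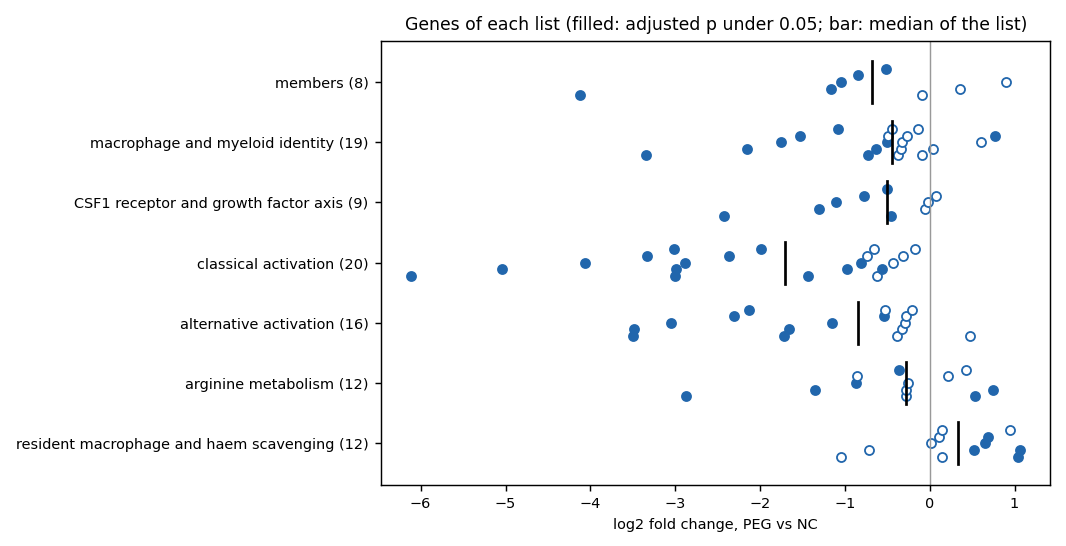
Log2 fold changes in PEG vs NC (horizontal axis, limma) of the tested genes of 7 lists, with the number tested in brackets. Filled points have an adjusted p under 0.05 and bars are list medians. Medians are below 0 for 6 of the 7 lists, lowest for classical activation (-1.71), and above 0 for resident macrophage and haem scavenging genes (0.33).

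Of 20 tested classical activation genes, 14 were lower in PEG-fused than NC PNAs and 0 were higher (limma), with a median log2 fold change of -1.71. Of all genes tested, 13.9% were lower and 15.0% were higher. Irf1, an interferon-induced transcription factor, had 2015 to 2941 counts in PEG-fused PNAs and 16665 to 20631 in NC PNAs (log2 fold change -2.98, limma adjusted p = 0.00019), and the co-stimulatory receptor Cd40 was at -2.36 (limma adjusted p = 0.000623). Of 16 tested alternative activation genes, 9 were also lower and 0 were higher, with a median of -0.84. Socs1, an inhibitor of cytokine signalling, was at -3.50 (limma adjusted p = 0.000387) and the transcription factor Irf4 at -1.65 (limma adjusted p = 0.000897). Many genes of both lists are made by T cells, B cells or dendritic cells as well. Against Unop nerves, 18 of the 20 classical genes were higher in PEG-fused PNAs and 19 in NC PNAs, and 12 of the 16 alternative genes were higher in each. Of all genes tested, 29.1% (PEG) and 32.2% (NC) were higher.

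Of 19 further identity genes tested, 8 were lower, 1 was higher and 10 did not pass in PEG vs NC, with a median of -0.44. Of all genes tested, 13.9% were lower and 15.0% were higher. Irf8, a transcription factor of monocytes and dendritic cells, had 3079 to 6027 counts in PEG-fused PNAs and 12119 to 20073 in NC PNAs (log2 fold change -1.75, limma adjusted p = 0.00259), and lysozyme, Lyz2, was at -1.53 (limma adjusted p = 0.00406). The gene that rose was Lgals3, galectin-3, with 51665 to 68161 counts in PEG-fused PNAs, 32368 to 35568 in NC PNAs and 8056 to 13947 in Unop nerves (log2 fold change 0.77, limma adjusted p = 0.0246). Like Cd68, it was highest in all 3 PEG-fused PNAs. Without NC 1 and NC 3, 5 of the 19 passed, all lower, and Lgals3 was not among them.

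Markers of other cell types also differed between the kinds of graft, some lower and some higher in PEG-fused PNAs. Of all genes tested, 13.9% were lower and 15.0% were higher. All 8 T cell markers were lower in PEG-fused PNAs, with summed counts of 1827 to 5241 beside 21494 to 40508 in NC PNAs and 214 to 414 in Unop nerves, and none of the 8 was at 0 in any library. Of 7 tested dendritic cell markers, 4 were lower (summed counts 1350.0 to 3188 in PEG-fused PNAs and 5280.5 to 9616 in NC PNAs), as were 5 of 5 B cell markers (84.1 to 171 and 401 to 877). Of 6 tested neutrophil markers, 2 were lower and 4 did not pass. Their sum was higher in PEG-fused PNAs (1274 to 2257, beside 431 to 1136 in NC PNAs), most of it Mmp8, with S100a8 at 10.7 to 21.3 counts in the grafts. Fibroblast markers were higher for 3 of 6 (594156 to 876273 and 337837 to 512197), and Schwann cell markers for 4 of 6, whereas 2 of 5 tested skeletal muscle markers were lower. The part of these cells in the values above was not tested.

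By the root mean square difference of log2 counts over the 8 libraries, after the mean of each gene was subtracted, the 2 genes nearest in pattern to Nos2 were Lag3 (0.402) and Pdcd1 (0.535). Nearest to Cd68 were Pttg1 (0.143) and Mcm10 (0.153), to Aif1 Pycard (0.132) and Fcgr1a (0.145), and to Adgre1 Slfn13 (0.187) and Clec4a1 (0.189). Csf1r was nearest to Slc45a4 (0.0889) and Trib1 (0.1). Arg1 was nearest to Sdc1 (0.301) and Il1rl2 (0.318), Mrc1 to Kcnj2 (0.14) and Amz1 (0.166), and Cd163 to Samd13 (0.138) and the unnamed gene AABR07009105.1 (0.216). Nos2 and Arg1 thus had no neighbour as near as those of the other 6 genes. This distance was not scaled to the spread of each gene, so genes with widely spread counts tend to lie further from others. None of the 8 was nearest to another of the 8.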

How the data were processed

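RNA of 3 PEG-fused and 3 NC grafts and of 2 unoperated nerves was read as poly-A selected, stranded libraries. The authors used TopHat2 (genome Rnor 6.0) for alignment and HTSeq for read counts per gene, and divided these by DESeq2 size factors, so the deposited signal values are normalized counts. All were whole reads within 0.001 after multiplication by a size factor (0.800 to 1.12). Deposited fold changes and p-values of the authors were not used.

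Genes that reached 10 normalized counts in 2 or more libraries were fitted with limma 3.58.1 (trend, R 4.3.3) on log2(normalized count + 1), in 1 group-means fit of 8 libraries, with Benjamini-Hochberg adjustment over 16478 genes (threshold 0.05, two-sided). This scale understates changes of low counts. A second fit subtracted the log2 value of Csf1r from each library. Ratios used Python 3.11.15. Those of Aif1 to Cd68, Nos2 to Arg1 and Cd163 to Mrc1 were not planned and were not tested. Replicates were separate animals. On simulated counts for PEG vs NC with 16478 genes, 64 of 100 genes changed 2-fold and 92 of 100 changed 4-fold were recovered, with 16 false calls. Changes were placed only in genes with higher counts, and in far fewer genes than passed in the real data. These rates therefore do not give the recovery for low counts such as those of Nos2.

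The 8 genes and the 13 lists were chosen with earlier results of these data known. Named list genes are all those of the CSF1 receptor, arginine and resident lists, the 2 with the smallest adjusted p per direction in PEG vs NC of the other macrophage lists, and the 2 nearest in pattern to each of the 8. Listed genes without a symbol in the table were left out, and 1 listed gene is not reported here by name. Alternatives were DESeq2 1.42.0, edgeR 4.0.16 with TMM factors, TMM rescaling, other filters and pseudocounts, a robust fit, the 2 groups alone, a replicate block, a required fold change of 2, other reference genes and each library left out. Leaving out NC 1 and NC 3 together was chosen after seeing the data.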

Additional observations from a re-analysis of the deposited data

How the results depend on the processing

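Of 58 alternative counts of the 8 genes called, 55 were within 1.5 times the main count, as were 321 of 348 for the lists and 45 of 52 relative to Csf1r. Among single values, 443 of 464 kept direction and side of the threshold, 17 lost the call, 1 gained it and 3 turned sign; relative to Csf1r these were 305 of 361, 27, 10 and 19. Unless stated, the cause was not tested. In PEG vs NC, the 5 calls became 3 with a fold change of 2 also required (Adgre1, Aif1 and Nos2), 3 without NC 1 and NC 3 (Adgre1, Csf1r and Nos2, with fewer samples) and 3 to 6 with each library left out, 3 being without PEG 2. A required fold change of 2 gave 5 identity genes for 9, 3 of the CSF1 receptor axis for 6, 2 of arginine metabolism for 6, 2 resident genes for 5 and 2 relative to Csf1r for 5. Leaving out libraries in turn gave 5 to 10 identity genes, 2 to 6 of the axis, 2 to 5 resident genes and 3 to 5 relative to Csf1r. Resident genes numbered 3 with edgeR and 2 with no filter, and without NC 1 and NC 3 there were 5 identity genes, 2 of the axis, 3 resident genes and 3 relative to Csf1r (Cd68, Mrc1 and Nos2). In PEG vs Unop, a required fold change of 2 gave 5 arginine genes for 9 and 3 relative to Csf1r for 5, Adgre1 as the reference gave 3, and leaving out libraries gave 9 to 14 alternative activation genes, 5 to 9 arginine genes and 3 to 5 relative to Csf1r. In NC vs Unop, 5 resident genes for 9 had a fold change of 2, and leaving out libraries gave 6 to 9.

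Mrc1 in PEG vs NC turned to 0.051 without PEG 2, 0.054 without NC 3 and 0.25 without NC 1 and NC 3. Values relative to another reference change by construction. With Ptprc as the reference, signs turned for Cd163 (0.64), Aif1 (0.32) and Adgre1 (0.43) in PEG vs NC, for Nos2 (-0.57), Arg1 (-0.28), Mrc1 (-1.72), Aif1 (-0.96) and Adgre1 (-1.33) in PEG vs Unop, and for Arg1 (-2.67), Cd68 (-0.81), Aif1 (-1.28) and Adgre1 (-1.76) in NC vs Unop. With Adgre1 they turned for Cd163 in PEG vs NC (0.21), Mrc1 in PEG vs Unop (-0.39) and Arg1 in NC vs Unop (-0.90). Relative to Csf1r, Cd163 turned to 0.073 in PEG vs NC without NC 1 and NC 3, Nos2 to -0.61 in PEG vs Unop with a pseudocount of 8, and Arg1 in NC vs Unop to -0.25 without NC 2 and -0.12 without Unop 2 (range with each library left out -0.25 to 0.54).

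Replicate numbers were not taken as pairs: deviations of same-numbered PEG and NC libraries correlated at 0.108, 0.109 and -0.0502. With the number as a block, 4165 genes passed in PEG vs NC beside 4763, and 3 of the CSF1 receptor axis beside 6. Mrc1 relative to Csf1r then passed (0.43, limma adjusted p = 0.0356), and Nos2 in PEG vs Unop did not (2.33, limma adjusted p = 0.0803). At these depths Nos2 in PEG-fused PNAs rests on 2 to 9 reads per library.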
